A study of Mus musculus with 14 samples.

Results

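RNA of 9 adhesion molecules was measured in cells sorted from the synovium, the lining tissue of the joint, of mouse knees. They are the immunoglobulin-type molecules Vcam1, Icam1, Alcam, Ncam1, Cadm1 and Jam3, the cadherins Cdh2 and Cdh11, and the receptor phosphatase Ptprd. Each symbol matched 1 Ensembl gene of the count table, so the members are 9 of 47729 genes, and all 9 passed the filter on low counts. The members were selected on their measured values in the groups compared here, so their differences between groups are given as a description and support nothing by themselves.

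Immunoglobulin-type adhesion molecules are surface proteins built from repeated folded domains that bind a partner on another cell. Some bind integrins, as VCAM1 and ICAM1 do when leukocytes attach to an inflamed vessel wall or stroma, and others bind a copy of themselves or a relative, as NCAM1 and CADM1 do. Classical cadherins bind the same cadherin on the neighbouring cell in the presence of calcium and connect through catenins to actin. CDH11 is the cadherin known for joining fibroblast-like cells of the synovial lining, and CDH2 joins neural, cardiac, muscle and bone-forming cells.

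The data are RNA counts from 14 libraries of C57BL6 mice aged 16 weeks, each made from 200 to 500 sorted cells. Arthritic mice had been immunized against mBSA, a methylated serum albumin of cattle, with complete Freund's adjuvant, and then had mBSA injected into the knee joint, whereas non-immunized mice received PBS, and knees were taken at day 10. All cells were gated as negative for TER119 (erythroid), CD31 (endothelial) and CD45 (leukocyte) and as carrying CD51, integrin alpha V. The 3 groups were CD200-CD105+ cells of arthritic mice (CD105_AIA, libraries 10 to 14), CD200+CD105- cells of arthritic mice (CD200_AIA, libraries 5 to 9) and CD200+CD105- cells of non-immunized mice (CD200_NI, libraries 1 to 4). CD105+ cells of non-immunized mice were not analysed here, so arthritis and sorted phenotype differ together between CD105_AIA and CD200_NI. The labels do not say whether libraries came from separate animals, or whether both arthritic populations came from the same animals. The p-values therefore measure only the spread between these libraries.

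Library totals ranged from 12177437 to 40331071 counts, and counts on genes from 2919666 to 18553803, and the added spike-in RNA took over 80% of the counts of libraries 2, 5 and 6. The RNA of the sorting marker Cd200 was 0 to 11.45 CPM (counts per 1000000 counts on genes, after scaling) in CD105_AIA, 318 to 541 CPM in CD200_AIA and 428 to 796 CPM in CD200_NI. Eng, the gene of CD105, was low everywhere, with 0 to 11.1 CPM in CD105_AIA, 0 to 1.35 CPM in CD200_AIA and 0.315 to 12.2 CPM in CD200_NI, so the RNA did not separate the groups by CD105. Itgav, the gene of CD51, measured 0.888 to 23.9 CPM in CD105_AIA, 1.82 to 139.9 CPM in CD200_AIA and 8.07 to 82.5 CPM in CD200_NI. Pecam1 (CD31), Ptprc (CD45) and Thy1 reached at most 2.78, 19.6 and 12.7 CPM in any library. CD105_AIA libraries carried erythroid RNA despite the gate against TER119, with a summed level of 8 erythroid markers of 26670 to 244900 CPM, against 4.23 to 10360 CPM in CD200_AIA and 1169 to 10150 CPM in CD200_NI. Of those markers, Klf1, Epor and Gata1 had no count in CD200_AIA. CD200+ libraries carried muscle markers, with a summed level of 6 genes of 566.5 to 1502 CPM in CD200_AIA and 349 to 1449 CPM in CD200_NI, against 0 to 7.64 CPM in CD105_AIA, where Pax7, Myf5, Myog and Cdh15 had no count. They also carried osteoblast markers (95.8 to 5602 CPM in CD200_AIA and 7724 to 14610 CPM in CD200_NI, against 1.05 to 39.1 CPM in CD105_AIA, where Runx2 had no count). The summed level of 6 fibroblast markers was 1397 to 4474 CPM in CD105_AIA, 2767 to 14090 CPM in CD200_AIA and 9088 to 23210 CPM in CD200_NI, and that of 6 mural cell markers was 3.77 to 276 CPM, 382 to 1588 CPM and 329 to 1207 CPM in the same groups. The summed level of 4 synovial lining markers went the other way, with medians of 2209 CPM in CD105_AIA, 668 CPM in CD200_AIA and 116 CPM in CD200_NI. Its ranges overlapped, at 78.1 to 5604, 42.8 to 2059 and 2.33 to 302 CPM. Of the 4 genes, 3 had higher means in CD105_AIA than in CD200_AIA and 2 than in CD200_NI, and none was called. The part of these cell types in the results below was not tested, and in bulk samples fewer cells of a type and less RNA per cell cannot be told apart.

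RefSeq promoter windows, running from 250 bases before to 50 bases after a RefSeq start, were at hand for 2 of the 9 members, Icam1 and Alcam. These starts differ from the gene positions given below, and the Alcam window lies wholly within the gene. Both are shown because no other member had a window. Icam1 is a textbook target of the transcription factor NF-kB. These members also had the widest relative spread in CD200_AIA (coefficients of variation of 1.47 and 1.79). In CD200_NI the spread was widest for Cdh11 (0.982), and in CD105_AIA for Alcam, Cadm1 and Cdh2 (2.24 each). A link of the spread to the windows was not tested. Both are GRCm38.p6, read 5′ to 3′ on the gene's own strand, with motif matches in capitals.
Icam1, chr9:21015690-21015989, plus strand: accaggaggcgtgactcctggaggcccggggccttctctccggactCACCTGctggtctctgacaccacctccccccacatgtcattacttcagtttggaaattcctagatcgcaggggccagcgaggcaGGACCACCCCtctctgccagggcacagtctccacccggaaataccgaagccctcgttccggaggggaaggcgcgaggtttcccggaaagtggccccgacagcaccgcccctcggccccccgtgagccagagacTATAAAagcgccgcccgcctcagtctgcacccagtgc
Alcam, chr16:52453032-52453331, minus strand: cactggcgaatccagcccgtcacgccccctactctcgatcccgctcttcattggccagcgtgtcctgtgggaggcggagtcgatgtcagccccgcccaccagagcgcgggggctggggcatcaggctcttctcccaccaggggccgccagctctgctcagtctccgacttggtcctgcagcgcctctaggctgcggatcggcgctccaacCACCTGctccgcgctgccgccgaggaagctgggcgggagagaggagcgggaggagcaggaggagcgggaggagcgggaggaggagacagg
Both strands were searched for 2 forms of the NF-kB (kB) site, a strict one and a loose one, and for the TATA box (TATAAA) and the E-box (CACCTG), and no match overlapped another. The Icam1 window held the loose NF-kB form on the opposite strand (starting at position -120 from the RefSeq start), an E-box (-204) and a TATA box (14), and the Alcam window held an E-box (-40). Of 32851 promoters of this length, 1.63% held the strict NF-kB form, 19.2% the loose one, 13.6% the TATA box and 20.2% the E-box. Both NF-kB forms begin with a run of G bases, so kB sites that lack this run were not searched for. Stretches in small letters may therefore hold kB sites, in the Icam1 window too. Whether NF-kB binds the marked Icam1 match was not tested. The matches are descriptions of letters in the windows.

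Vcam1, the endothelial and stromal ligand of integrin alpha 4 beta 1, is on chromosome 3 (GRCm38, 116109949 to 116129688, minus strand). Its level was 7.10, 35.8, 28.0, 16.3 and 17.2 CPM in CD105_AIA (libraries 10 to 14), 1086, 992, 705, 627 and 739 CPM in CD200_AIA (libraries 5 to 9), and 967, 783, 532 and 1104 CPM in CD200_NI (libraries 1 to 4). Every CD105_AIA library lay below every CD200+ library, while the CD200+ groups overlapped. The means were 20.9 ± 11.2 CPM in CD105_AIA, 829.8 ± 198.0 CPM in CD200_AIA (SD, n = 5 each) and 846 ± 248 CPM in CD200_NI (SD, n = 4). The fitted log2 change was -5.31 ± 0.433 (SE) in CD105_AIA against CD200_AIA and -0.03 ± 0.382 in CD200_AIA against CD200_NI. Vcam1 shares exon bases with Gm43109 on the other strand, and no source used here gives the strand setting of the counting, so the 2 genes cannot be told apart there.

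Icam1, the ligand of the beta 2 integrins of leukocytes, is on chromosome 9 (21015985 to 21028817, plus strand). It measured 0, 12.9, 1.91, 1.36 and 5.00 CPM in CD105_AIA, 0, 0, 40.7, 75.8 and 0 CPM in CD200_AIA, and 14.9, 20.5, 19.8 and 64.9 CPM in CD200_NI. In CD200_AIA the gene had no count in libraries 5, 6 and 9 and was high in libraries 7 and 8, whereas all CD200_NI libraries had counts. CD105_AIA overlapped with CD200_AIA and lay below CD200_NI in every library. The fitted log2 change of CD200_AIA against CD200_NI was -0.36 ± 1.85, with a sign that changed in 3 of 19 alternative settings. Libraries 5 and 6 were among the 3 with the fewest counts on genes, and library 9 was not.

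Alcam, the ligand of CD6 on T cells that also binds itself, is on chromosome 16 (52248996 to 52454074, minus strand) and was the member with the fewest counts. Its level was 6.51 CPM in library 11 of CD105_AIA and 0 in the other four, against 14.9, 0, 1.28, 0 and 1.63 CPM in CD200_AIA and 6.19, 0, 2.14 and 4.17 CPM in CD200_NI. All 3 groups overlapped, with libraries at 0 in each. Over the groups, 3 counts equal 0.0477 CPM in CD105_AIA, 0.0575 CPM in CD200_AIA and 0.0538 CPM in CD200_NI, which covers counting error only.

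Ncam1, which binds itself on neurons, muscle progenitors and mesenchymal cells, is on chromosome 9 (49502136 to 49798925, minus strand). It measured 2.22, 1.37, 5.63, 4.38 and 3.75 CPM in CD105_AIA, 78.7, 96.7, 106.1, 127 and 69.2 CPM in CD200_AIA, and 145, 222, 187 and 113 CPM in CD200_NI. CD105_AIA lay below both CD200+ groups in every library, and the CD200+ groups overlapped through libraries 4 and 8. With a coefficient of variation of 0.240 in CD200_AIA and 0.286 in CD200_NI, Ncam1 and Vcam1 (0.239 and 0.293) were the members with the least relative spread in the CD200+ groups. The fitted log2 change was -4.78 ± 0.449 in CD105_AIA against CD200_AIA and -0.80 ± 0.404 in CD200_AIA against CD200_NI. Ncam1 shares exon bases with Gm11149, with the same limit as for Vcam1.

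Cadm1, a homophilic adhesion molecule of epithelia, neurons and mast cells, is on chromosome 9 (47530173 to 47857637, plus strand). Its level was 5.97 CPM in library 11 of CD105_AIA and 0 in the other four, against 8.66, 44.0, 24.9, 77.2 and 4.65 CPM in CD200_AIA and 175, 49.9, 111 and 103 CPM in CD200_NI. CD105_AIA lay below CD200_NI in every library and overlapped with CD200_AIA through library 11, and library 8 of CD200_AIA was above the lowest CD200_NI library. Cadm1 was not called in CD105_AIA against CD200_AIA (log2 change -4.68 ± 1.61, edgeR with Benjamini-Hochberg adjusted p = 0.0759) but was called without library 11 (log2 change -11.6, adjusted p = 0.00135), by DESeq2 (-4.92, adjusted p = 0.0105) and by limma voom (-6.88, adjusted p = 0.0019). In CD105_AIA against CD200_NI it was called with a log2 change of -6.46 ± 1.77, and missed the threshold without library 1, 3, 10 or 14 (edgeR adjusted p = 0.0502 to 0.0594). Over the alternatives that change was -13.3 to -4.68, with the first value without library 11, where the group is at 0 and a fitted size is no bound.

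Jam3, a junctional molecule that pairs with JAM2 and with leukocyte integrins, is on chromosome 9 (27097384 to 27155421, minus strand). It measured 1.77, 10.3, 0, 5.17 and 6.18 CPM in CD105_AIA, 6.04, 16.4, 75.2, 20.1 and 172.8 CPM in CD200_AIA, and 77.5, 80.9, 56.3 and 19.3 CPM in CD200_NI. Libraries 7 and 9 were the high ones in CD200_AIA, where the mean of 58.1 ± 69.6 CPM was close to that of 58.5 ± 28.3 CPM in CD200_NI. CD105_AIA overlapped with CD200_AIA through library 5 and not with CD200_NI. Neither change of CD105_AIA was called (edgeR adjusted p = 0.0609 against CD200_AIA and 0.0594 against CD200_NI), and the first was called without library 5 (adjusted p = 0.0434) and without the libraries over 80% spike-ins (0.0377). Both were called under the stricter filter of 10 CPM (adjusted p = 0.0463 and 0.0453), by DESeq2 (0.00228 and 0.0016) and by limma voom (0.0147 and 0.025), and the second also with RLE factors (0.0376).

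Cdh2, N-cadherin, is on chromosome 18 (16588877 to 16809246, minus strand). It was counted in 1 CD105_AIA library, library 11, at 0.896 CPM, and was 0 in the other four, against 2.82, 6.67, 28.7, 64.2 and 43.6 CPM in CD200_AIA and 178, 73.7, 119.6 and 135 CPM in CD200_NI. The 3 groups did not overlap, with CD105_AIA lowest and CD200_NI highest. The fitted log2 change was -7.11 ± 1.41 in CD105_AIA against CD200_AIA, -9.22 ± 1.55 in CD105_AIA against CD200_NI and -2.11 ± 1.14 in CD200_AIA against CD200_NI, the last not called. The CD105_AIA level rested on 15 counts, all in library 11, so the size of both changes depends on that library and on the setting, at -11.4 to -5.85 and -13.5 to -7.58 over the alternatives, with the lowest values without library 11, where the group is at 0 and a fitted size is no bound. The lowest values in CD200_AIA were those of libraries 5 and 6, which also held the fewest counts on genes.

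Cdh11, cadherin-11 of synovial fibroblasts and osteoblasts, is on chromosome 8 (102632095 to 102785642, minus strand). It measured 1.11, 1.97, 20.03, 2.04 and 0.662 CPM in CD105_AIA, 3.83, 74.3, 184, 177 and 131 CPM in CD200_AIA, and 906, 25.9, 418 and 202 CPM in CD200_NI. Library 12 stood above the other CD105_AIA libraries and above library 5 of CD200_AIA, and the CD200+ groups overlapped. The spread within CD200_NI was wide, with a mean of 388 ± 381 CPM. In CD105_AIA against CD200_AIA the log2 change was -4.46 ± 1.22, called at an edgeR adjusted p = 0.0315 but not without library 7, 8, 9, 10, 11, 13 or 14 (adjusted p = 0.0514 to 0.0731).

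Ptprd, a type IIa receptor tyrosine phosphatase that binds synaptic partners of neurons and carries immunoglobulin and fibronectin domains, is on chromosome 4 (75941238 to 78211961, minus strand). It had no count in any of the 5 CD105_AIA libraries, against 297, 32.1, 161, 119 and 151 CPM in CD200_AIA and 391, 116, 175 and 235 CPM in CD200_NI. CD105_AIA therefore lay below every CD200+ library, and the CD200+ groups overlapped. Set against the floor of 3 counts over the group, Ptprd was at least 3190-fold lower in CD105_AIA than in CD200_AIA and at least 4810-fold lower than in CD200_NI. Ptprd shares exon bases with B230208B08Rik, and reads there cannot be assigned to either gene.

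**Figure D1:**
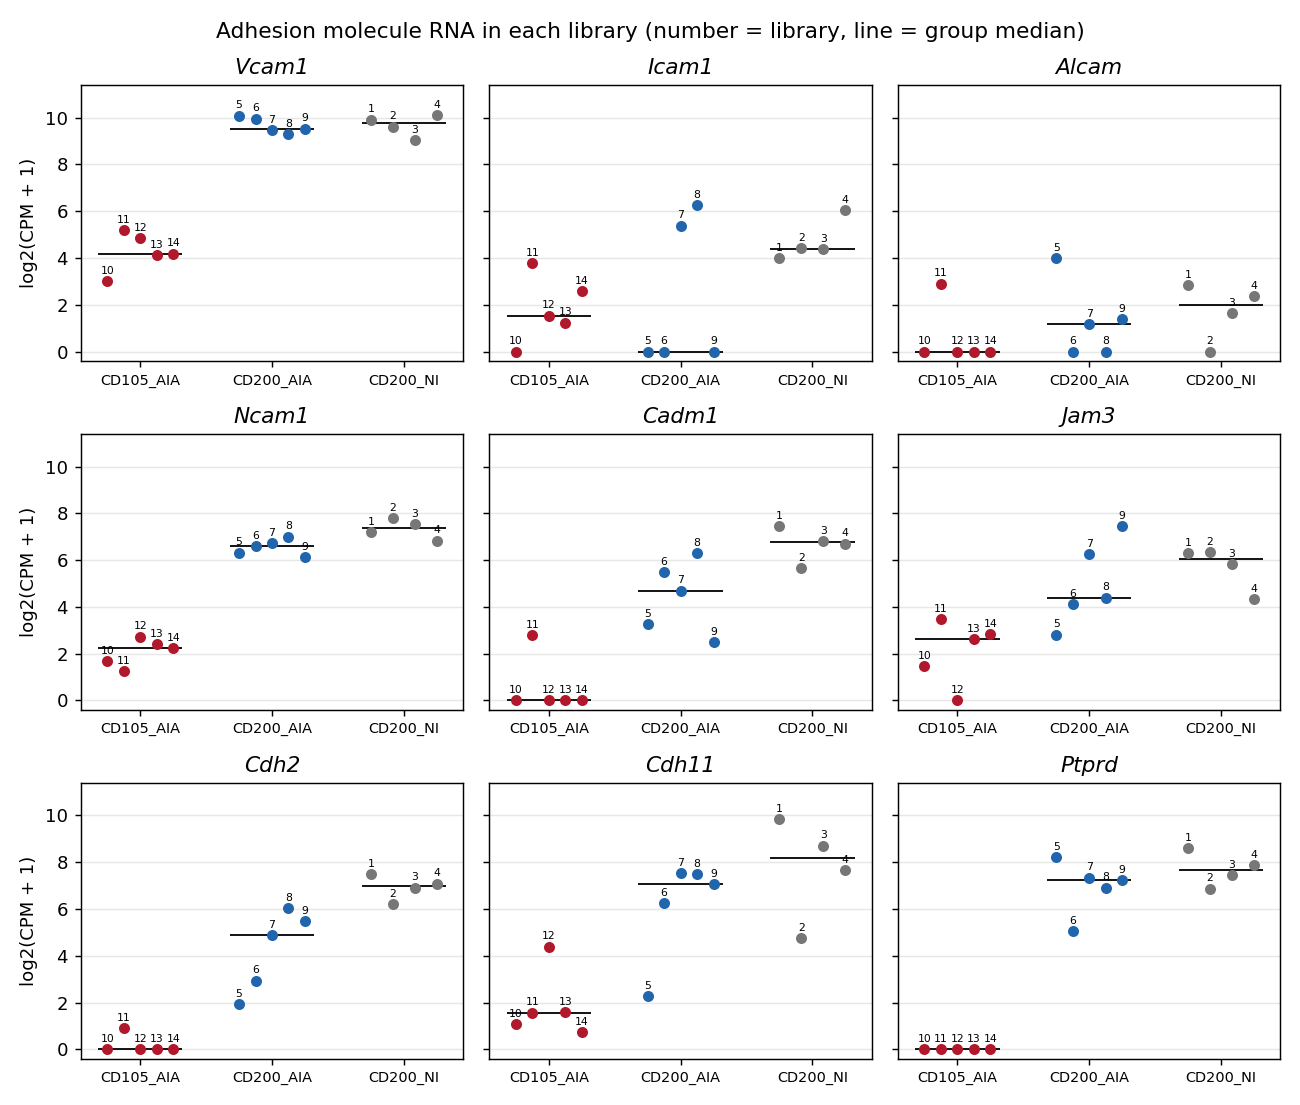
Level of each adhesion molecule as log2(CPM + 1), 1 point per library with its number and a line at the group median, for CD105_AIA (5 libraries), CD200_AIA (5) and CD200_NI (4). Vcam1, Ncam1, Cdh2 and Ptprd of CD105_AIA lie below both CD200+ groups without overlap, while Alcam overlaps in all 3 groups.

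In CD105_AIA against CD200_AIA, 5 of the 9 molecules were called lower (Vcam1, Ncam1, Cdh2, Cdh11 and Ptprd) and none higher, by a quasi-likelihood test in edgeR (adjusted p under 0.05, Benjamini-Hochberg over 15015 genes). Of all genes tested 6.48% were called lower and 4.79% higher. The 4 molecules not called were Icam1, Alcam, Cadm1 and Jam3, which had lower means in CD105_AIA too. Vcam1, Ncam1, Cdh2 and Ptprd did not overlap between the groups, as did 6.33% of all genes tested in the lower direction. The median log2 change of the 9 was -4.68, and that of all genes tested was -0.05. Because the members were selected on this contrast, nothing is read from these counts. With libraries scaled on the spike-ins instead, which moved the median of all genes up by 1.27, only Vcam1 and Ptprd were called and Alcam turned higher, at 1.68. DESeq2 and limma voom each called 7 of the 9, these 5 with Cadm1 and Jam3. Spike-in scaling gave 71.6% of all calls as higher, against 42.5% with the main scaling.

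In CD105_AIA against CD200_NI, Vcam1, Ncam1, Cadm1, Cdh2, Cdh11 and Ptprd were called lower, 6 of 9, where 7.63% of all genes tested were called lower and 5.57% higher. Of the 9, 8 lay below CD200_NI in every library, all but Alcam, as did 11.5% of all genes tested. The median log2 change was -5.58, against -0.24 over all genes tested. With spike-in scaling, which moved the median of all genes up by 1.45, only Cdh11 and Ptprd were called, and Alcam turned higher at 0.46. DESeq2 and limma voom each called 7 of the 9, with Jam3 added. The share of calls that were higher was 42.2% here, 60.1% with spike-in scaling, 31.9% with RLE factors and 53.8% in a fit of these 2 groups alone.

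In CD200_AIA against CD200_NI, no member was called and no gene at all (0.0% of 15015, with a lowest edgeR adjusted p of 0.636, while 915 genes had an unadjusted p under 0.05). DESeq2 called 303 genes and limma voom 4, none of them a member. Means of 8 members were lower in CD200_AIA and that of Alcam was higher. Only Cdh2 lay below CD200_NI without overlap, as did 1.18% of all genes tested. The median log2 change of the 9 was -0.59, and that of all genes tested was -0.10. The directions of Vcam1, Icam1, Alcam and Jam3 depended on the setting, whereas Ncam1, Cadm1, Cdh2, Cdh11 and Ptprd had the lower value in CD200_AIA in each of 19 settings, with log2 changes of -1.01 to -0.56 for Ncam1 and -2.62 to -1.66 for Cdh2. None of them was called in any of these settings. The 2 comparisons of CD105_AIA share their libraries, as do those of each CD200+ group, so their values only stand side by side.

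**Figure D2:**
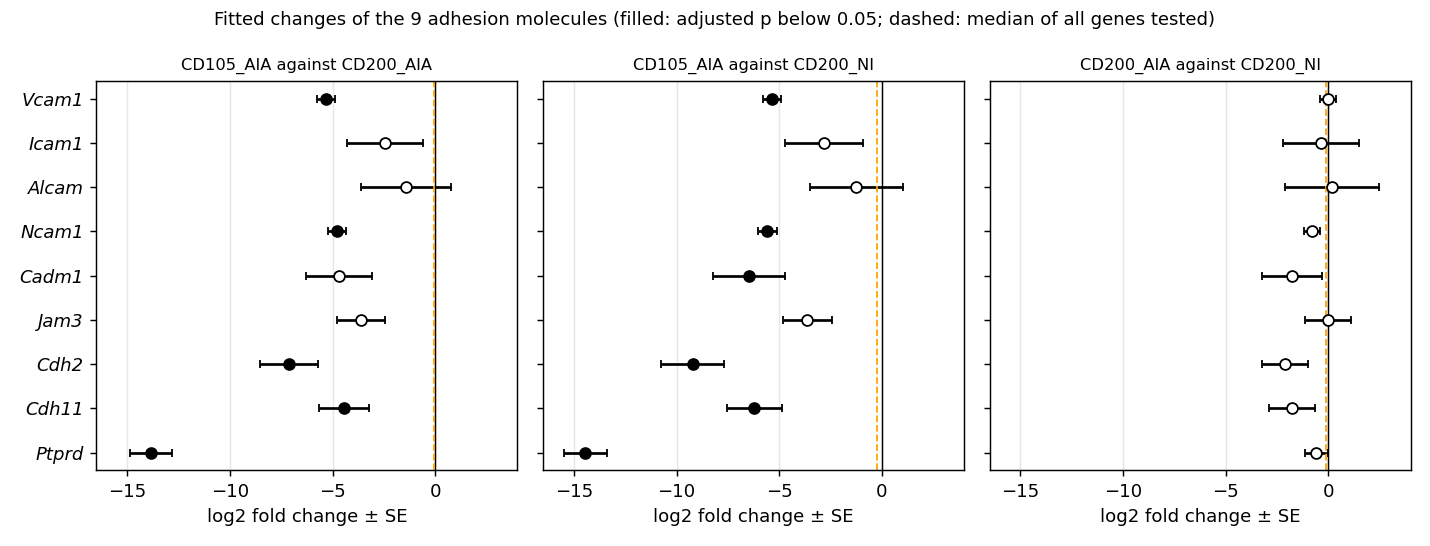
Fitted log2 fold changes with SE of the 9 adhesion molecules in the 3 comparisons, filled where the adjusted p was below 0.05, with a dashed line at the median of all genes tested. Filled points are 5 in CD105_AIA against CD200_AIA, 6 in CD105_AIA against CD200_NI and 0 in CD200_AIA against CD200_NI.

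Levels of different genes were compared as CPM per kilobase of exon, with the exons of all annotated transcripts of a gene joined. The order therefore depends on the annotation too. Ptprd, with 22822 such bases, had a higher mean than Cdh11 in CD200_AIA (152 against 114 CPM) but follows it below. Vcam1 led in every group, at 2.35 ± 1.26 in CD105_AIA, 93.5 ± 22.3 in CD200_AIA and 95.4 ± 27.9 CPM per kilobase in CD200_NI. In CD200_AIA all 5 Vcam1 values were above all Jam3 values (18.1 ± 21.7 CPM per kilobase), and the following genes in the order, Cdh11, Ncam1, Ptprd, Icam1, Cdh2, Cadm1 and Alcam, overlapped with their neighbours. In CD200_NI the order was Vcam1, Cdh11, Ncam1, Jam3, Cdh2, Cadm1, Ptprd, Icam1 and Alcam, and only Icam1 and Alcam did not overlap as neighbours. In CD105_AIA all neighbouring pairs overlapped, and 3 of the last members, Alcam, Cadm1 and Cdh2, were counted in library 11 alone.

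Library 11 held leukocyte RNA at the highest level of its group. Lyz2, the lysozyme of myeloid cells, measured 4537 CPM there against 0 to 13.9 CPM in the other CD105_AIA libraries, and Cd74, the invariant chain of antigen-presenting cells, measured 924 CPM against 0. Over the groups, the summed level of 8 leukocyte markers was 0 to 6061 CPM in CD105_AIA (median 31.2), 1.81 to 93.0 CPM in CD200_AIA (median 64.2) and 8.39 to 2907 CPM in CD200_NI (median 688), and Cd3e had no count in any library. S100a8, a protein of neutrophils, averaged 110.8 CPM in CD105_AIA, 32.5 CPM in CD200_AIA and 749.5 CPM in CD200_NI, where all 4 libraries held it. Of the 8 markers, 4 were tested, and all 4 had lower means in CD200_AIA than in CD200_NI. Their median log2 change was -5.98, against -0.10 over all genes tested, though none was called. All 4 overlapped between these groups, and in CD200_NI Ptprc had counts in 1 library, Lyz2 in 2, Cd74 in 3 and S100a8 in 4. Adgre1 and Cd79a were at 0 in CD200_AIA as well, and had counts in 1 and 2 CD200_NI libraries. The part of leukocytes in the members' levels, in CD200_AIA against CD200_NI and in library 11, was not tested.

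**Figure D3:**
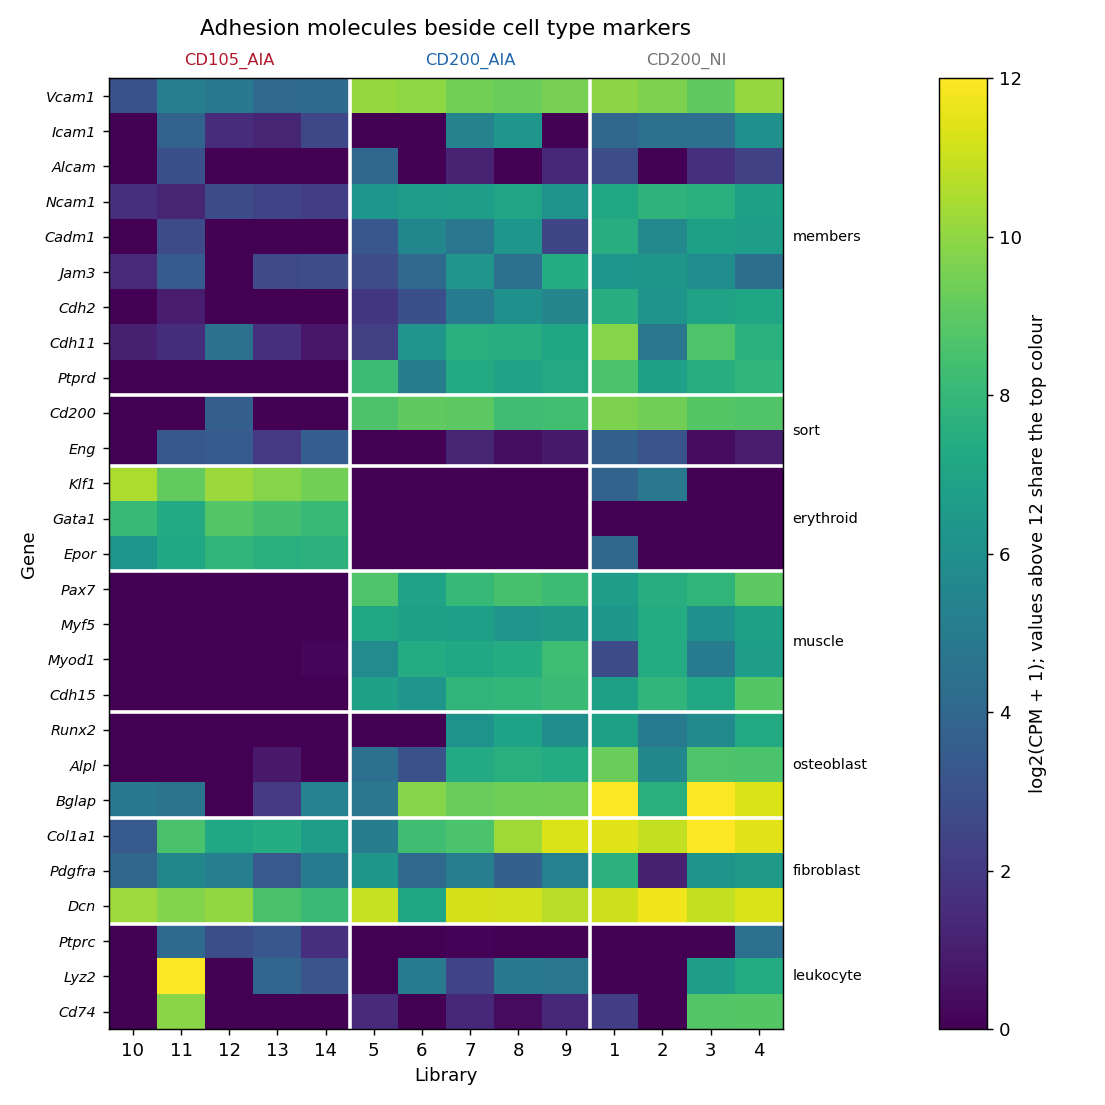
Level of the 9 adhesion molecules and of chosen cell type markers as log2(CPM + 1), 1 column per library, with groups CD105_AIA, CD200_AIA and CD200_NI from left to right. Ptprd shares its zeros in CD105_AIA with the muscle markers Pax7, Myf5 and Cdh15 and with the osteoblast marker Runx2. Library 11 is bright for Lyz2 and Cd74.

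The nearest genes to each member over the 14 libraries were found by the root mean square difference of centred log2(CPM + 1) among 8922 genes with a mean of at least 10 CPM. The measure is a description, and it is dominated by the gap between CD105_AIA and the CD200+ groups that selected the members. Vcam1 was nearest to Fgfr1 (0.465), Tshz3 (0.478) and Zbtb20 (0.545), and Ncam1 to Tacc2 (0.633), Tshz2 (0.644) and Cdc42ep1 (0.675). Ptprd was nearest to Cdh15 (0.861) and Pax7 (0.876), both of muscle progenitors, and to Bmp4 (0.909). Cdh2 was nearest to Tnfrsf19 (0.819), Tmem47 (0.828) and Slit2 (0.865), and Cdh11 to Ltbp2 (0.953), Rspo3 (1.03) and Chrdl1 (1.03). Jam3 lay nearest to Tmem135 (0.884), Ank2 (0.920) and Pdgfc (0.949), Cadm1 to Gnai1 (1.04), Csf1 (1.12) and Plekha5 (1.12), and Icam1 to Fam129b (0.682), Rfx5 (1.09) and Dixdc1 (1.19). Among the members themselves, Vcam1 and Ncam1 were the closest pair (0.84), and Icam1 and Ptprd were the most distant (3.45). Alcam was too low for this search.

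Partners of these molecules were followed in 8 lists of 166 related genes, of which 94 were tested. The lists were chosen by function, with earlier results of these data known, so nothing is read from the numbers of calls below. In CD105_AIA against CD200_AIA, 2 of the 94 rose and 20 fell, against 4.79% and 6.48% of all genes tested, and in CD105_AIA against CD200_NI 1 rose and 27 fell, against 5.57% and 7.63%. None was called in CD200_AIA against CD200_NI by edgeR. Without library 9, 13 or 14 the 22 calls of the first comparison became 14, 11 or 13, and without library 4 or 14 the 28 calls of the second became 18 or 17. With spike-in scaling the first comparison held 5 calls, 2 higher and 3 lower, and the second 3, all lower. DESeq2 called 40 and 39 of the 137 it tested, and limma voom 47 and 50 of the 94.

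Among 38 other immunoglobulin-type molecules, 21 were tested, and in CD105_AIA against CD200_AIA 1 rose and 3 fell. Icam4, the erythroid ligand of integrins, had 103.9 to 279 CPM in CD105_AIA and no count in CD200_AIA, at least 3310-fold higher (edgeR adjusted p = 0.00793). The 8 erythroid markers above were also higher in CD105_AIA, and whether Icam4 followed them from library to library was not tested. Kirrel, a nephrin-like molecule also known from myoblast fusion, fell to 3.35 ± 4.43 CPM in CD105_AIA, against 76.3 ± 18.1 CPM in CD200_AIA (log2 change -4.48, adjusted p = 0.0253), without overlap. Jam2, the partner of Jam3, also fell (-4.75, adjusted p = 0.0375) but overlapped through library 8, and Bcam, a laminin receptor, had no count in CD105_AIA (adjusted p = 0.0393). Against CD200_NI, Clmp, Kirrel, Jam2 and Bcam fell and Icam4 rose.

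Of 45 other cadherins, 16 were tested, and 6 fell in each CD105_AIA comparison. Cdh15, M-cadherin of muscle progenitors, had no count in CD105_AIA against 191 ± 90.8 CPM in CD200_AIA (at least 4020-fold lower, adjusted p = 4.41e-05). Fat1, an atypical cadherin, fell to 3.61 ± 2.94 CPM in CD105_AIA, against 77.3 ± 56.6 CPM in CD200_AIA (log2 change -4.40, adjusted p = 0.0105). Cdh13, the membrane-anchored T-cadherin, fell to 7.21 ± 7.47 CPM, against 148 ± 34.0 CPM (log2 change -4.38, adjusted p = 0.0204). Fat1 and Cdh13 did not overlap between these groups.

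Of 16 catenins and junction adaptors, 10 were tested, and 3 fell in CD105_AIA against CD200_AIA. Jup, plakoglobin, had no count in CD105_AIA against 12.9 ± 9.26 CPM in CD200_AIA (at least 271-fold lower, edgeR adjusted p = 0.00385). Afdn, afadin, fell by 3.08 on the log2 scale (adjusted p = 0.00895), and Ctnnd1, the p120 catenin that holds cadherins at the membrane, fell by 3.16 (adjusted p = 0.0289). Ctnnb1, beta-catenin, was not called in that comparison (150.5 ± 67.6 CPM in CD105_AIA, 252 ± 120.4 CPM in CD200_AIA) and fell by 2.13 in CD105_AIA against CD200_NI (658 ± 196 CPM in CD200_NI, adjusted p = 0.011).

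Of 11 integrin and other counter-receptors, 5 were tested, and in CD105_AIA against CD200_AIA 1 rose and 1 fell. Itgb1, the beta 1 chain that pairs with alpha 4 to bind VCAM1, fell to 144.5 ± 31.3 CPM in CD105_AIA, against 359 ± 104.0 CPM in CD200_AIA (log2 change -1.31, adjusted p = 0.00604). Itga4, the alpha 4 chain, measured 94.99, 138, 135.5, 115 and 183 CPM in CD105_AIA and 0, 0, 4.59, 10.9 and 0 CPM in CD200_AIA. These groups did not overlap, yet Itga4 was not called (log2 change 5.39 ± 1.80, adjusted p = 0.0684). Itgb2, the beta 2 chain of integrins that bind ICAM1, measured 9.99, 89.8, 12.7, 22.8 and 8.23 CPM in CD105_AIA. It had no count in CD200_AIA and measured 0, 17.9, 15.4 and 0 CPM in CD200_NI. It rose in CD105_AIA against CD200_AIA (adjusted p = 0.0264, 0.0456 without library 11, the highest, and 0.0593, no longer called, without the libraries over 80% spike-ins) and was not called against CD200_NI (adjusted p = 0.585). Of the alpha chains that pair with beta 2 in this list, Itgal had no count in CD105_AIA. Itgam and Itgax had counts there in library 11 alone, at 24.1 and 4.12 CPM. Cd6 and Crtam, the partners of Alcam and Cadm1 on lymphocytes, had no count in any library.

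Of 20 type IIa and homophilic phosphatases and their partners, 12 were tested, and 4 fell in CD105_AIA against CD200_AIA. Ptprk, a homophilic phosphatase, fell to 0.229 ± 0.512 CPM in CD105_AIA, against 29.1 ± 12.6 CPM in CD200_AIA (log2 change -6.94, edgeR adjusted p = 0.00768). Slitrk5, a synaptic partner of the type IIa phosphatases, had no count in CD105_AIA, against 13.8 ± 4.93 CPM in CD200_AIA (adjusted p = 0.0153). In CD200_AIA it measured 7.97 to 21.5 CPM, against 0 to 2.96 CPM in CD200_NI, without overlap and not called (log2 change 3.27 ± 1.75, adjusted p = 0.976). Ptprs and Ptprf, the type IIa relatives of Ptprd, were not called in CD105_AIA against CD200_AIA (edgeR adjusted p = 0.0909 and 0.0509). Both fell in CD105_AIA against CD200_NI (log2 change -4.47 and -4.41, edgeR adjusted p = 0.0134 and 0.0434).

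The sheddases, proteases that cut adhesion molecules from the surface, held 1 call in CD105_AIA against CD200_AIA, Adam9, which fell by 2.83 (edgeR adjusted p = 0.019). Against CD200_NI, Adam9, Mmp14 and the inhibitor Timp3 fell. In the list on NCAM modification and signalling, Fgfr1 and Fgfr2, receptors that NCAM can engage, both fell, and Fgfr1 measured 10.6 ± 6.84 CPM in CD105_AIA, 306 ± 80.9 CPM in CD200_AIA and 406 ± 81.0 CPM in CD200_NI. The 18 genes of NF-kB and cytokine input had 14 tested and no call by edgeR in any comparison. In CD105_AIA against CD200_AIA all 14 had a lower value, with a median log2 change of -2.10, against -0.05 over all genes tested. Against CD200_NI 13 of the 14 were lower (median -1.95, against -0.24), and in CD200_AIA against CD200_NI 7 of the 14 were. Nfkbia, the inhibitor induced by NF-kB, measured 169.6 ± 222 CPM in CD105_AIA, 537 ± 222 CPM in CD200_AIA and 339 ± 217 CPM in CD200_NI. Cxcl1, a neutrophil-attracting chemokine, measured 73.7 ± 138 CPM in CD105_AIA, 1139 ± 1231 CPM in CD200_AIA and 303 ± 287 CPM in CD200_NI, with overlap between all 3 groups.

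**Figure D4:**
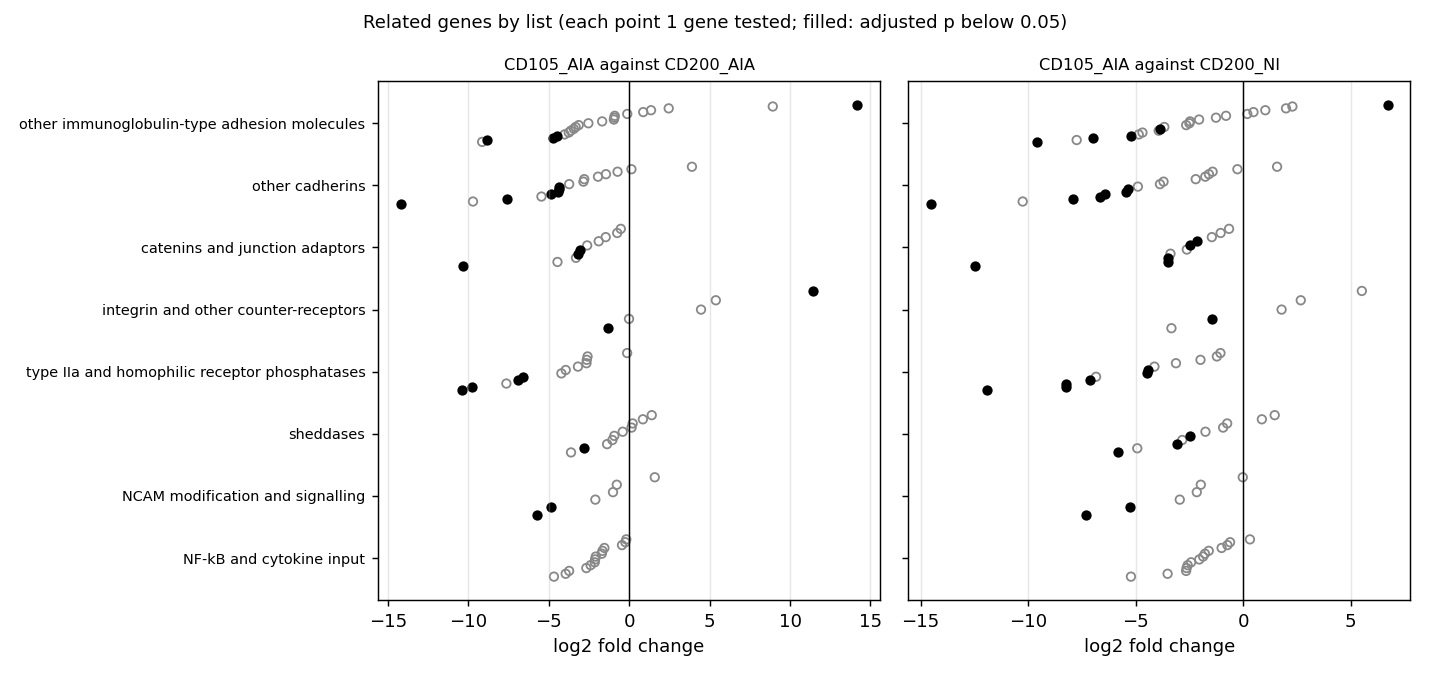
Fitted log2 fold changes of related genes by list in CD105_AIA against CD200_AIA and in CD105_AIA against CD200_NI, 1 point per gene tested, filled where the adjusted p was below 0.05. Filled points lie mostly left of 0, 20 of 22 in the first comparison and 27 of 28 in the second, and the filled points right of 0 are Icam4 and Itgb2.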

How the data were processed

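RNA of 14 libraries was analysed from the deposited table of whole-number counts per gene. Per the submitters' processing notes the tools included HISAT2, StringTie, cutadapt and edgeR (no versions) and the builds mm10 and GRCm38. No source used here gives the strand setting. Per the labels' protocols, cDNA was made by SMART-Seq v4 with ERCC spike-ins, which amplifies small inputs and carries no molecular identifiers, so intervals and floors cover counting error only. Symbols and positions came from GENCODE M21, which matched 47310 of 47729 genes.

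The 92 spike-ins stayed out of library sizes and tests. edgeR 4.0.16 (R 4.3.3) kept 15015 genes by filterByExpr (minimum count 10), scaled them by TMM and fitted all 14 libraries in 1 robust quasi-likelihood model of 3 groups (common biological coefficient of variation 1.28). Two-sided p-values were adjusted over all genes tested (Benjamini-Hochberg, threshold 0.05). SE is approximate: the size of the log2 change over the root of the F statistic. CPM use the same scaling. Where a group had 0 counts, folds are bounds set by 3 counts over that group. No library proved to be a copy of another of its group.

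The members and gene lists were chosen with earlier results of these data known. Named are the 9 members, the sort markers, and from each list up to 3 called genes without overlap by smallest p, or its 2 most abundant genes where there were none, and the 3 nearest genes to each member. Other genes named, such as Lyz2, Cd74 and the remaining markers and partners, were chosen after their values were seen. A marker gene of the lists is not reported here and was left out of the sums. Alternatives were RLE factors, spike-in scaling, no filter, a filter of 10 CPM in 4 libraries, the genes of a further deposited table whose counts equal those used, shrinkage that was not robust, a fit of 2 groups, DESeq2 1.42.0, limma 3.58.1 voom with sample weights, and leaving out the 3 libraries over 80% spike-ins or each library in turn. The tests were first run on simulated data with less spread than these libraries have, which checks the code and not the power to call genes here.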

Additional observations from a re-analysis of the deposited data

Results flagged for a closer look

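Of 27 groups of libraries (9 genes in 3 groups), 6 held 1 library far from the rest by Dixon's criterion. Chance gives this in about 1 of 20 where values are continuous and normally distributed, which was not tested for these CPM values. That rate does not hold for 3 of the 6, in which the other four libraries were at 0 and any count meets the criterion, and Ptprd in CD105_AIA, at 0 throughout, could not meet it. Alcam was 6.51 CPM in library 11 of CD105_AIA and 0 in the other four, Cadm1 was 5.97 CPM and Cdh2 0.896 CPM in the same library with 0 in the other four. Cdh11 was 20.03 CPM in library 12 of CD105_AIA, against 0.662 to 2.04 CPM in the rest of the group. Alcam was 14.9 CPM in library 5 of CD200_AIA, against 0 to 1.63 CPM, and Icam1 was 64.9 CPM in library 4 of CD200_NI, against 14.9 to 20.5 CPM.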

How the results depend on the processing

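No paired analysis was possible because the groups share no replicate numbers. With spike-in scaling, 545 genes, 2 members and 5 related genes were called in CD105_AIA against CD200_AIA, and 278, 2 and 3 in CD105_AIA against CD200_NI. DESeq2 called 3565 and 4072 genes in these comparisons and limma voom 4624 and 4993, with 40 (DESeq2) and 47 (voom) related genes in the first and 50 (voom) in the second. In CD200_AIA against CD200_NI, DESeq2 called 303 genes and 3 related genes, and voom 4 genes. Leaving out 1 library gave 0 to 2 genes in CD200_AIA against CD200_NI (2 without library 3), 1090 to 1713 in CD105_AIA against CD200_AIA and 1308 to 1762 in CD105_AIA against CD200_NI (the lowest without library 14), and 11 to 24 and 17 to 24 related genes. The cause of these differences was not tested. Signs turned in CD200_AIA against CD200_NI for Vcam1 (0.00761 with the genes of the filtered table), Icam1 (0.18 with spike-in scaling, 0.24 without the libraries over 80% spike-ins), Alcam (-1.22 and -2.11 in the same settings, -1.64 with voom) and Jam3 (0.76 and 0.79 in the same settings, 0.36 with voom and 0.10 with the filtered table's genes). Leaving out 1 library gave Vcam1 -0.21 to 0.12, Icam1 -1.55 to 0.37, Alcam -2.08 to 0.71 and Jam3 -0.99 to 0.28 there. In CD105_AIA against CD200_AIA, Icam1 turned to 0.60 with voom and Alcam to 1.68 with spike-in scaling and 0.44 without the libraries over 80% spike-ins (-8.40 to 0.82 with 1 library left out), and in CD105_AIA against CD200_NI Alcam turned to 0.46 with spike-in scaling. With the fit of 2 groups, 52.5% of calls in CD105_AIA against CD200_AIA were higher. Alcam was not tested under the filter of 10 CPM, nor in the fit of CD105_AIA and CD200_AIA alone.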
